A study of Mus musculus with 16 samples.

Results

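The genes described here are the mucins and the enzymes that start and first extend mucin-type O-glycans, in mouse mammary organoids of 4 genotypes. They were chosen by name among protein-coding genes: symbols of the form Muc plus a number, symbols of the form Galnt plus a number or l, and the core enzymes C1galt1, Gcnt1, Gcnt3 and B3gnt6 with the chaperone gene C1galt1c1. The rule found 38 of the 55487 genes in the count table: 13 mucins, 20 Galnt genes and 5 core enzyme or chaperone genes. No measured value entered the choice, and Galnt6os, which matches the Galnt pattern, was left out because it is not protein-coding.

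RNA was sequenced from 16 organoid samples: 3 wild type (WT), 4 with mutated PIK3CA, 4 with mutated HER2, and 5 with both mutations (double mutant). The series title gives the changes as H1047R in PIK3CA, the catalytic subunit of a phosphoinositide 3-kinase, and V777L in HER2, the receptor tyrosine kinase encoded in mouse by Erbb2. The labels give normal breast as the origin of the WT organoids and breast tumor as that of all mutant organoids, so that in every comparison with WT the genotype and the tissue of origin cannot be told apart. All 4 groups were grown in the same medium with EGF, a ligand of the EGF receptor, and medium conditioned by Rspo1 and Noggin. The promoter or Cre behind the mutations, the age of the mice, and how many mice the samples came from are not given in the sources used here. Nothing states that the samples of a group came from separate mice, so p-values measure the spread between these samples, which may be technical.

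Mucin-type O-glycosylation begins in the secretory pathway when a GalNAc-transferase, the product of a Galnt gene, places N-acetylgalactosamine on a serine or threonine. C1galt1, folded with the help of its chaperone C1galt1c1 (Cosmc), adds galactose to make core 1, Gcnt1 or Gcnt3 branches it to core 2, and B3gnt6 makes core 3 instead. Mucins carry dense clusters of these sugars. Membrane-bound mucins such as Muc1, Muc4, Muc15 and Muc20 cover the apical surface of epithelia including the mammary ducts, and Muc1 and Muc15 are known from the milk fat globule membrane, while gel-forming mucins such as Muc2, Muc5ac, Muc5b and Muc6 are secreted.

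Levels are CPM, that is counts scaled to library size, with TMM scaling between libraries, and differences are log2 fold changes with their standard error (SE) from edgeR's quasi-likelihood test on all 16 samples. Adjusted p is Benjamini-Hochberg over the 24252 genes tested in a comparison, with a threshold of 0.05. Libraries held 45545182 to 64168308 counts, and 3 counts corresponded to 0.0468 to 0.0659 CPM. Erbb2 averaged 156 ± 13.1 CPM in WT (SD, n = 3), 168 ± 16.1 in PIK3CA mutant (n = 4), 3600 ± 803 in HER2 mutant (n = 4) and 2031 ± 639 CPM in double mutant organoids (n = 5). Over the tested genes, the mean correlation of a library with the others of its genotype was 0.932 to 0.946 in HER2 mutants, 0.958 and 0.959 for double mutant replicates 2 and 3, 0.964 to 0.971 for the other double mutants, and 0.974 to 0.981 in WT and PIK3CA mutants. All 10 luminal and all 7 basal epithelial markers reached 3 counts in every library. The summed level of 6 fibroblast markers was 325 to 1899 CPM in WT and 26.2 to 624 CPM in mutant libraries, and that of 6 immune markers was 487 to 2963 CPM in WT and 9.33 to 177 CPM in mutant libraries. Their part in the differences from WT was not tested. In these bulk samples, fewer cells of a type and less RNA per cell cannot be told apart.

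The upstream sequences of Muc4, Muc20 and Galnt7 are shown because these were the 3 members that passed the threshold in every mutant genotype against WT. Each is the 250 bases before the RefSeq start site in GRCm38.p6, 5′ to 3′ on the gene's strand, at chr16:32735636-32735885 (plus strand) for Muc4, chr16:32797436-32797685 (minus) for Muc20 and chr8:57653056-57653305 (minus) for Galnt7. Capitals mark matches, on either strand, to any of 7 short motifs chosen after values were seen.
Muc4: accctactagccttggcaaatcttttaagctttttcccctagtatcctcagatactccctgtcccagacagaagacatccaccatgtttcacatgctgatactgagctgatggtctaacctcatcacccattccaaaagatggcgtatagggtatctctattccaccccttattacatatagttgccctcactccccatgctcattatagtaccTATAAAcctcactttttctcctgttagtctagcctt
Muc20: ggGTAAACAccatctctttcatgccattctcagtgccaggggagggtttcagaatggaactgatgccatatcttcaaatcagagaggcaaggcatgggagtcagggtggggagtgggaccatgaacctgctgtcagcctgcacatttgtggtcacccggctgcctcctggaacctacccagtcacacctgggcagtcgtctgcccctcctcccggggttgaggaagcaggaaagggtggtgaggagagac
Galnt7: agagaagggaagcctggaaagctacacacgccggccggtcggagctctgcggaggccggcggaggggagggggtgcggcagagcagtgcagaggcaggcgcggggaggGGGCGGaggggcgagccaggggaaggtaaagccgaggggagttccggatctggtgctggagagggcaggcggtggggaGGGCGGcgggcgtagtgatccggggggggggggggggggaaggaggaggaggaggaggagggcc

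The Muc4 window held a TATA box (TATAAA) whose first base lay 36 bases before the start, a motif present in 12.4% of the 32851 windows of this length in the RefSeq table. The Muc20 window held a match to the FOXO motif (TGTTTAC, here on the other strand), present in 3.17% of windows, and the Galnt7 window held 2 GC boxes (GGGCGG), present in 32.7%. The other motifs searched were a STAT site (TTCNNNGAA, 7.02% of windows), an AP-1 site (TGANTCA, 6.75%), an E-box (CACGTG, 6.02%) and an ETS site (CCGGAAGT, 2.88%), and none of these letters was in the 3 windows. The 3 upstream sequences thus shared none of the 7 motifs, and their GC content was 43.6% for Muc4, 57.2% for Muc20 and 73.6% for Galnt7, beside a median of 52.4% over all windows. A match is a description of the letters and not a measured binding site.

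Of the 38 members, 28 had enough counts to be tested and 12 of these passed the threshold in at least 1 comparison. The other 10 (Galnt2l, Galnt5, Galnt13, Galntl5, Galntl6, Gcnt3, Muc3, Muc3a, Muc5ac and Muc19) stayed at or under 20 counts and 0.385 CPM in every library, and Galnt2l had 0 counts throughout. Against WT, 7 tested members changed in PIK3CA mutants, all of them higher, where 4.52% of all genes tested were called, 1.49% higher and 3.03% lower. In HER2 mutants 3 were higher and 1 was lower, against 10.4% of all genes called, 4.75% higher and 5.63% lower. In double mutants 7 were higher and 1 was lower, against 11.8% called, 5.03% higher and 6.72% lower. The median log2 difference from WT of the 28 tested members was 0.05 in PIK3CA mutants, -0.05 in HER2 mutants and 0.10 in double mutants, beside -0.03, 0.03 and 0.01 for all genes tested. Members lay on both sides of 0, as the map of fold changes shows, and an unadjusted p under 0.05 was reached by 10, 13 and 12 of the 28 in these comparisons. The share of all genes tested under this unadjusted threshold was not computed, so these counts are not a trait of the members. These 3 comparisons share the WT libraries. WT has 3 libraries, and the counts moved with them: without WT replicate 1 or WT replicate 3, 2 members were called in PIK3CA mutants, 2 in HER2 mutants and 4 in double mutants. Without PIK3CA mutant replicate 1, 4 were called in PIK3CA mutants, and without HER2 mutant replicate 2, 8 were called in HER2 mutants. The shares of all genes called in these fits are not given here.

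**Figure D1:**
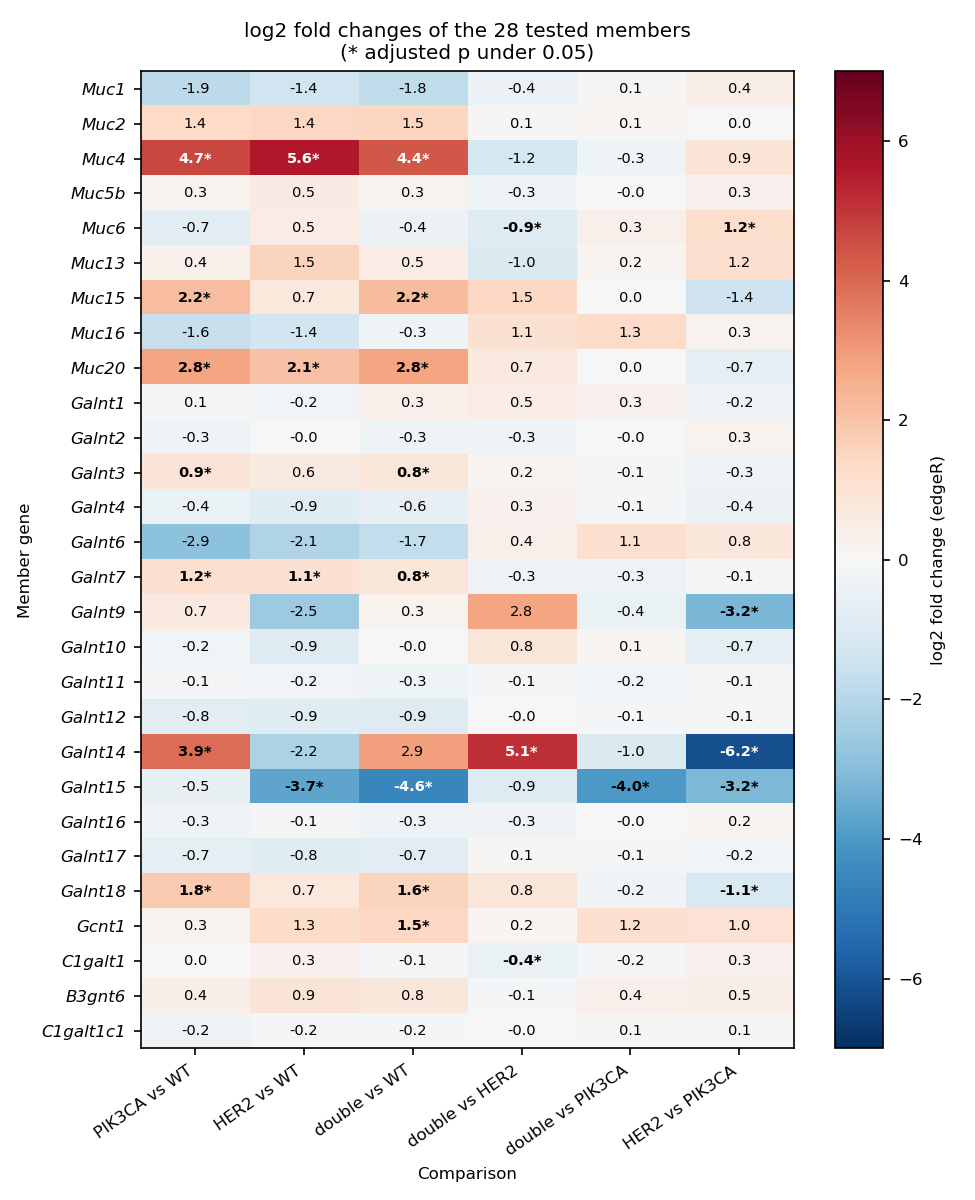
Log2 fold change of each of the 28 tested members (rows) in the 6 pairwise comparisons of genotypes (columns), as a number and as colour from lower (blue) to higher (red), with an asterisk where the edgeR adjusted p was under 0.05. The asterisks against WT stand mostly on Muc4, Muc20, Muc15, Galnt3, Galnt7 and Galnt18, which were higher, and on Galnt15, which was lower in HER2 mutant and double mutant organoids.

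Among the membrane-bound mucins, Muc4, Muc20 and Muc15 rose. Muc4 (ENSMUSG00000079620, chr16:32735886-32782391, plus strand) encodes a large mucin with EGF-like domains that is known as a partner of HER2 at the cell surface. It stood at 0.979, 3.52 and 0.250 CPM in WT replicates 1 to 3 and at 51.6, 30.5, 35.8 and 41.9 CPM in the 4 PIK3CA mutants. The 4 HER2 mutants had 37.3, 76.6, 171 and 18.7 CPM, and the 5 double mutants had 7.57, 109, 13.2, 22.7 and 9.55 CPM. Every mutant library was above every WT library, the PIK3CA mutants lay close together, and double mutant replicate 2 lay far above the other double mutants. The log2 fold change over WT was 4.67 (SE 1.13, adjusted p = 0.0256) in PIK3CA mutants, 5.59 (SE 1.18, adjusted p = 0.0086) in HER2 mutants and 4.37 (SE 1.10, adjusted p = 0.0172) in double mutants by edgeR. The call was kept in HER2 mutants whichever of their or the WT libraries was left out. It was lost without WT replicate 1 (adjusted p = 0.12 in PIK3CA and 0.0855 in double mutants), without WT replicate 3 (0.135 and 0.0866) and, in PIK3CA mutants, without PIK3CA mutant replicate 1 (0.0549).

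The difference of Muc4 from WT in the double mutant was smaller than the sum of those in the 2 single mutants. The interaction term, which is the HER2 mutation's log2 effect on the PIK3CA mutant background minus its effect on WT, was -5.90 (SE 1.36, edgeR adjusted p = 0.0495). It passed the threshold narrowly, was lost in 12 of the 16 fits that left out 1 library (adjusted p up to 0.173), and was kept only without WT replicate 2, HER2 mutant replicate 1, HER2 mutant replicate 4 or double mutant replicate 2. Of the 28 tested members, 2 passed in this test, Muc4 and Galnt7, both lower, where 1.06% of all genes tested passed, 0.515% higher and 0.544% lower. In this term too, genotype and tissue of origin cannot be told apart, because all mutant organoids came from breast tumor and WT did not.

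Muc20 (ENSMUSG00000035638, chr16:32777419-32797435, minus strand) encodes a membrane mucin known to bind the receptor Met. It lies tail to tail with Muc4, and the gene bodies overlap by 4973 bases. WT libraries had 5.96, 22.8 and 7.32 CPM, PIK3CA mutants 118, 69.7, 76.6 and 62.1 CPM, HER2 mutants 14.7, 64.5, 77.9 and 44.8 CPM, and double mutants 133, 94.2, 35.7, 73.7 and 72.0 CPM. All PIK3CA mutant and double mutant libraries were above WT, whereas HER2 mutant replicate 1 lay below WT replicate 2. The log2 fold change over WT was 2.76 (SE 0.589, adjusted p = 0.0121) in PIK3CA mutants, 2.07 (SE 0.570, adjusted p = 0.0315) in HER2 mutants and 2.77 (SE 0.577, adjusted p = 0.00545) in double mutants by edgeR. In double mutants the call was kept with any library left out. Without WT replicate 1 the adjusted p became 0.0661 in PIK3CA and 0.135 in HER2 mutants, and without WT replicate 3 it became 0.0927 and 0.155. In HER2 mutants it was also lost without HER2 mutant replicate 2 (0.0503) or replicate 3 (0.0712).

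Exons of other genes cover 5.33% of the Muc4 exon bases and 15.6% of those of Muc20. Whether counting used strand is not given in the sources used here, so reads in the shared stretch may not be assignable to either gene. The other protein-coding genes within 300 kb of the pair, a window chosen after values were seen, moved less. Of 30 differences from WT in 10 tested flanking genes, 4 passed the threshold, in Tnk2, Fyttd1 and Pcyt1a, and all 30 log2 fold changes lay between -0.87 and 0.96. Fyttd1, the gene with the highest of them, rose by 0.96 in double mutants (SE 0.155, edgeR adjusted p = 0.001).

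**Figure D2:**
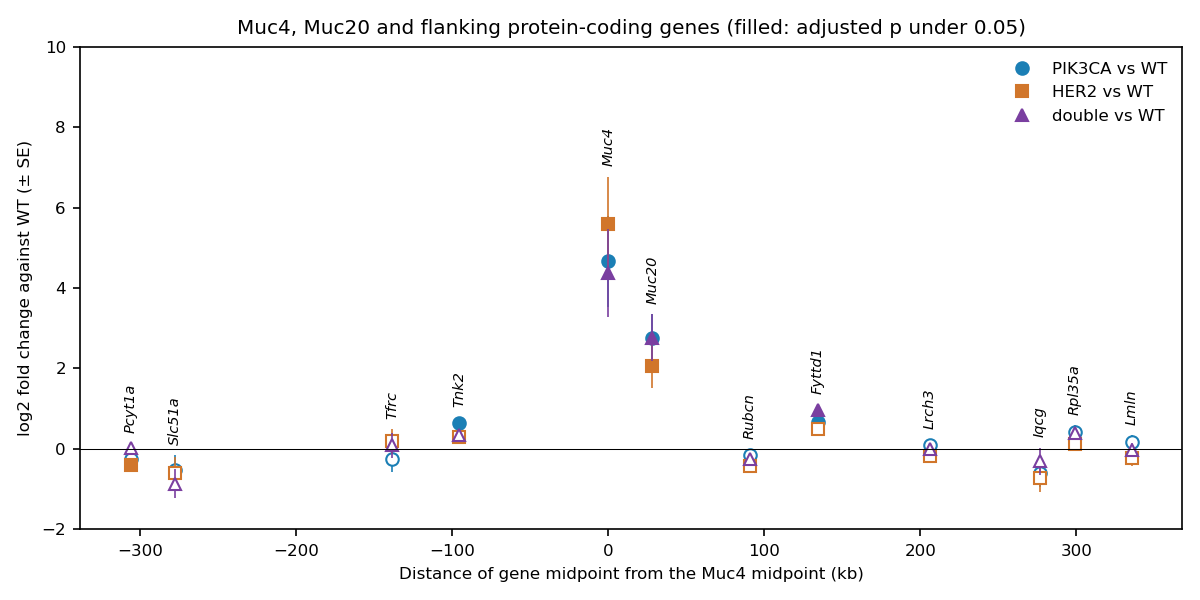
Log2 fold change against WT, with SE bars, of Muc4, Muc20 and the 10 tested protein-coding genes within 300 kb of them, by distance of the gene's midpoint from that of Muc4 in kb, for the 3 mutant genotypes, with filled symbols where the edgeR adjusted p was under 0.05. Muc4 at 4.37 to 5.59 and Muc20 at 2.07 to 2.77 stand above all flanking genes, which lie between -0.87 and 0.96.

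Muc15 (ENSMUSG00000050808, chr2:110721340-110739527, plus strand) rose in PIK3CA mutant and double mutant organoids. WT libraries had 56.4, 68.2 and 49.4 CPM, PIK3CA mutants 375, 224, 229 and 213 CPM, HER2 mutants 66.2, 25.3, 114 and 182 CPM, and double mutants 430, 269, 110, 236 and 303 CPM. All PIK3CA mutant and double mutant libraries were above all WT libraries, while the HER2 mutants spread from below WT to far above it. The log2 fold change over WT was 2.17 (SE 0.528, adjusted p = 0.0267) in PIK3CA mutants and 2.22 (SE 0.518, adjusted p = 0.011) in double mutants, and its value of 0.74 in HER2 mutants did not pass (adjusted p = 0.38) by edgeR. The PIK3CA mutant call was lost without WT replicate 1, 2 or 3 (0.106, 0.06 and 0.154) or PIK3CA mutant replicate 1 (0.0773). The double mutant call was lost without WT replicate 1 (0.0533) or WT replicate 3 (0.0706). The direct comparisons of HER2 mutants with the other mutants did not pass for Muc15. The summed level of the 10 luminal markers was 2008 to 2361 CPM in WT, 3035 to 3539 CPM in PIK3CA mutants, 1974 to 2657 CPM in HER2 mutants and 2565 to 4390 CPM in double mutants, and its part in the rise of Muc15 was not tested.

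Muc1 (ENSMUSG00000042784, chr3:89229057-89233381, plus strand), the classical transmembrane mucin of luminal mammary epithelium, had its highest values in WT. WT libraries had 735, 321 and 511 CPM, PIK3CA mutants 197, 127, 117 and 135 CPM, HER2 mutants 29.9, 441, 187 and 123 CPM, and double mutants 126, 70.3, 99.7, 209 and 243 CPM. PIK3CA mutant and double mutant libraries were all below WT, but HER2 mutant replicate 2 lay within the WT range. None of the 3 differences passed by edgeR: PIK3CA mutants differed from WT by -1.86 (adjusted p = 0.106), HER2 mutants by -1.42 (adjusted p = 0.151) and double mutants by -1.80 (adjusted p = 0.0503) on the log2 scale. The HER2 mutant difference passed without HER2 mutant replicate 2 (0.0219), and the double mutant difference passed without double mutant replicate 5 (0.0423). The double mutant difference also passed under 6 of 9 other settings (0.0139 to 0.0495), among them DESeq2 and other scaling, and the PIK3CA mutant difference passed by DESeq2 (0.0291) and with only the compared genotypes in the fit (0.00364).

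Scaled to exon length, Muc1 and Muc15 were the most abundant mucin mRNAs. Muc1 made up 90.2 ± 5.90% of the summed CPM per kilobase of exon of the mucin genes in WT, 38.5 ± 2.2% in PIK3CA mutants, 53.5 ± 23.5% in HER2 mutants and 39.1 ± 14.4% in double mutants (SD). Muc15 made up 7.44 ± 3.69% in WT, 45.5 ± 1.94% in PIK3CA mutants, 28.02 ± 19.5% in HER2 mutants and 44.9 ± 10.1% in double mutants. Muc20 took 1.56% in WT and 9.62% to 12.6% in the mutants, and Muc4, a long transcript, 0.07% in WT and 1.93% to 5.43% in the mutants. On this scale Muc1 ranked highest in WT and HER2 mutants, and Muc15 in PIK3CA and double mutants, although the shares of Muc1 and Muc15 overlapped in HER2 mutants (30.3% to 85.5% and 3.23% to 44.2%) and in double mutants. The summed level was 164 to 332 CPM per kilobase in WT, 137 to 224 in PIK3CA mutants, 42 to 220 in HER2 mutants and 87.3 to 209 CPM per kilobase in double mutants, so that HER2 mutant replicate 1 had the least. These shares were computed after values were seen and carry no test.

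**Figure D3:**
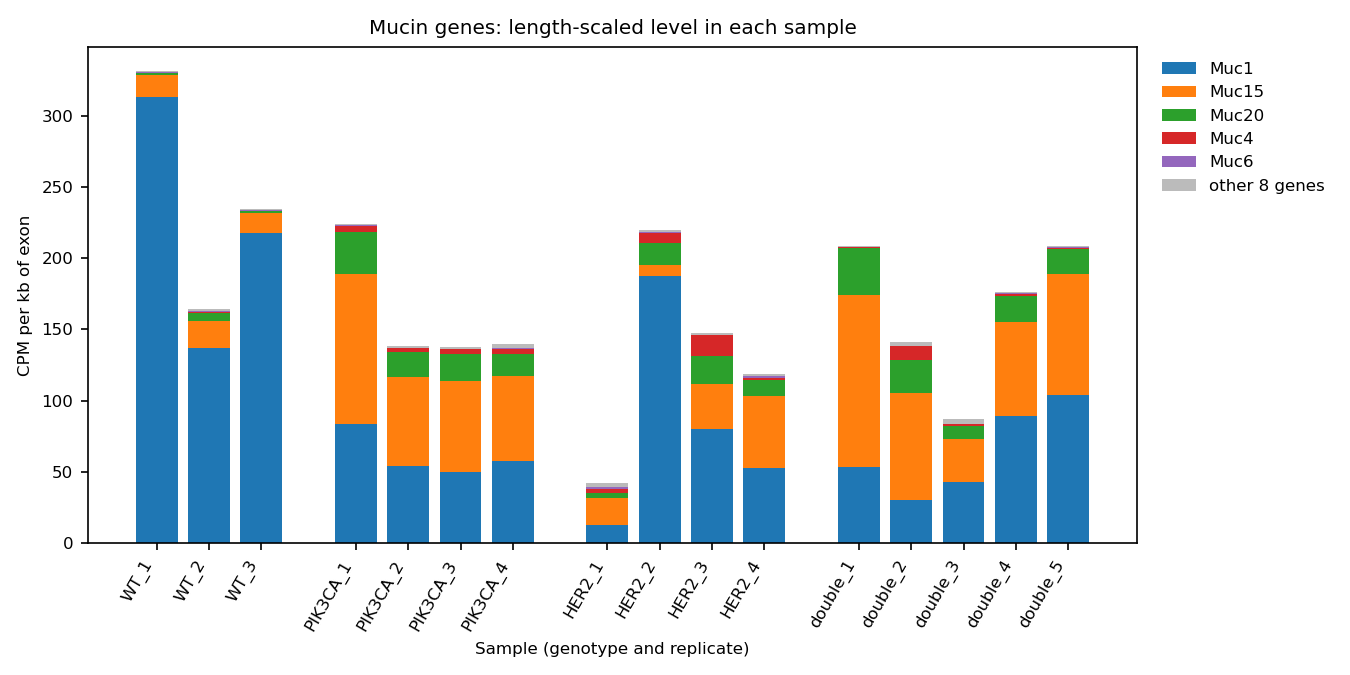
Level of the mucin genes in each sample, stacked as CPM per kilobase of exon on a linear axis from 0, with samples named by genotype and replicate. Muc1 fills most of the WT bars, at a mean of 223 CPM per kilobase, and Muc15 is the larger layer in PIK3CA mutants at a mean of 72.9 and in double mutants at 75.5 CPM per kilobase.

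Gel-forming mucins were low. Muc6, the gastric gland mucin, was the only gel-forming member to pass in a comparison. It had 6.90, 6.04 and 7.69 CPM in WT, 3.77, 3.74, 4.52 and 4.59 CPM in PIK3CA mutants, 12.9, 7.61, 6.01 and 12.9 CPM in HER2 mutants, and 4.47, 4.45, 6.12, 5.21 and 6.01 CPM in double mutants. HER2 mutants were all above PIK3CA mutants, and the lowest HER2 mutant lay within the double mutants. Muc6 was higher in HER2 than in PIK3CA mutants by a log2 fold change of 1.24 (SE 0.238, edgeR adjusted p = 0.00957), kept with any library left out. It was lower in double than in HER2 mutants by -0.91 (SE 0.222, edgeR adjusted p = 0.044). This call did not hold in 6 of 9 fits without 1 library (0.0711 to 0.0991) but did without HER2 mutant replicate 2, HER2 mutant replicate 3 or double mutant replicate 3. Muc5b ranged from 2.89 to 9.23 CPM and Muc2, the main intestinal goblet cell mucin, from 0.484 to 16.9 CPM over all libraries, with genotype ranges that overlapped. Muc13 stayed at or under 0.411 CPM, and Muc16 was at or under 5.76 CPM except for double mutant replicate 3 at 10.6 CPM. None of these 4 passed in any comparison.

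**Figure D4:**
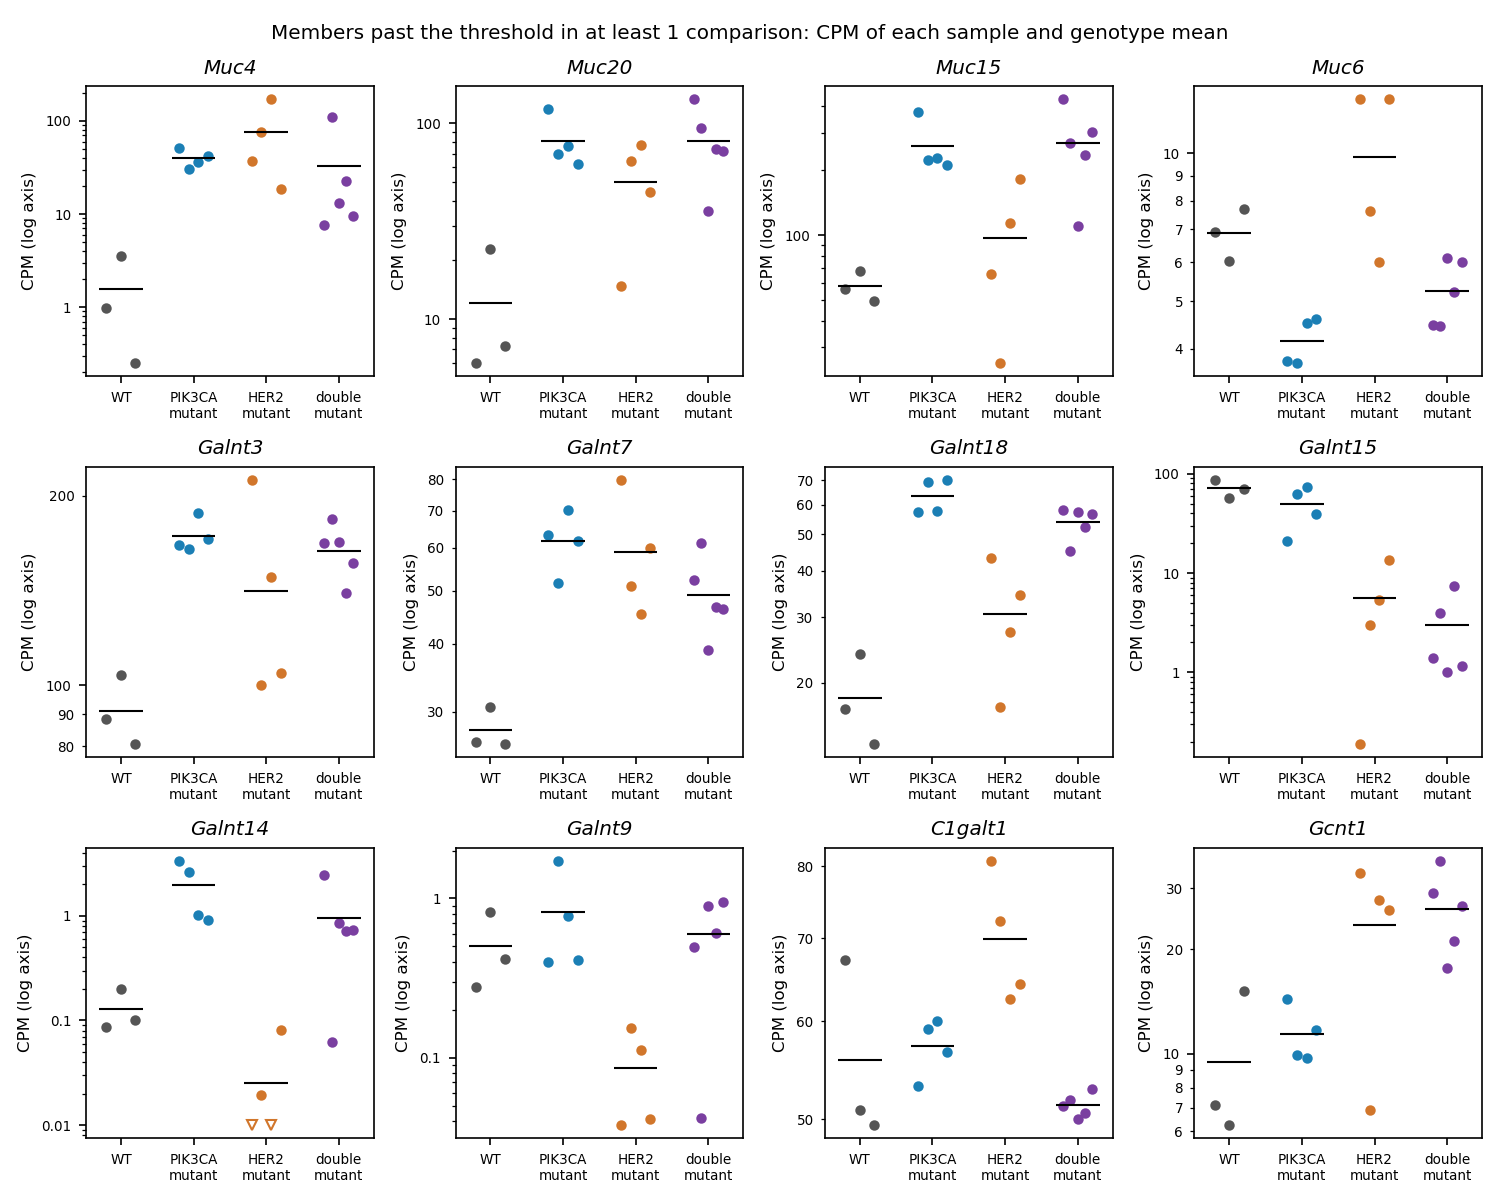
CPM of each sample (points) and genotype mean (bars) on log axes for the 12 members past the threshold in at least 1 comparison, with open triangles at the lower edge for 0 counts. Muc4 and Galnt7 show every mutant library above WT, and Galnt15 shows every HER2 mutant and double mutant library at or below 13.7 CPM, under all WT libraries at 56.7 CPM or more.

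Among the GalNAc-transferases, 4 of the 15 tested were called in PIK3CA mutants against WT, 2 in HER2 mutants and 4 in double mutants. Over all genes tested, 4.52%, 10.4% and 11.8% were called in these comparisons. The HER2 mutant share of the transferases, 13.3%, was near that of all genes. Galnt7 (ENSMUSG00000031608, chr8:57523828-57653032, minus strand), which is known to act mainly on peptides that already carry a GalNAc, rose in all 3 mutant genotypes. WT libraries had 26.4, 30.6 and 26.2 CPM, PIK3CA mutants 63.2, 51.6, 70.4 and 61.8 CPM, HER2 mutants 79.7, 50.9, 45.2 and 59.9 CPM, and double mutants 52.3, 61.0, 38.9, 46.7 and 46.3 CPM. Every mutant library was above every WT library. Log2 fold changes were 1.15 (SE 0.194, adjusted p = 0.00254) in PIK3CA mutants, 1.09 (SE 0.193, adjusted p = 0.00323) in HER2 mutants and 0.82 (SE 0.185, adjusted p = 0.0086) in double mutants by edgeR, lost only in the double mutants without WT replicate 3 (0.0609). The mean was 27.7 ± 2.49 CPM in WT, 61.8 ± 7.74 in PIK3CA, 59.0 ± 15.1 in HER2 and 49.1 ± 8.22 CPM in double mutants (SD), and the interaction term was -1.42 (SE 0.252, edgeR adjusted p = 0.0151), lost without WT replicate 3 (0.0652).

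Galnt18 (ENSMUSG00000038296, chr7:111471661-111779977, minus strand), a member of the subfamily that also holds Galnt9, rose in PIK3CA mutant and double mutant organoids. WT libraries had 17.0, 23.8 and 13.7 CPM, PIK3CA mutants 57.5, 69.1, 58.0 and 69.9 CPM, HER2 mutants 43.2, 17.2, 27.4 and 34.3 CPM, and double mutants 58.3, 45.2, 57.6, 52.3 and 56.6 CPM. PIK3CA and double mutants were all above the WT and HER2 mutant libraries, and the HER2 mutants ran from within WT upward. Relative to WT the log2 fold change was 1.81 (SE 0.258, adjusted p = 0.00119) in PIK3CA mutants and 1.57 (SE 0.249, adjusted p = 0.000857) in double mutants by edgeR, both kept with any library left out. HER2 mutants were lower than PIK3CA mutants by -1.06 (SE 0.228, edgeR adjusted p = 0.0174), lost without PIK3CA mutant replicate 2 (0.0553). Double mutants differed from HER2 mutants by 0.82, which did not pass (edgeR adjusted p = 0.0565).

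Galnt3 (ENSMUSG00000026994, chr2:66082766-66124994, minus strand), the transferase known for protecting the hormone FGF23 from cleavage, rose less. WT libraries had 88.4, 104 and 80.6 CPM, PIK3CA mutants 167, 165, 188 and 171 CPM, HER2 mutants 212, 100, 149 and 105 CPM, and double mutants 168, 184, 169, 140 and 157 CPM. PIK3CA mutant and double mutant libraries lay above all WT libraries, and HER2 mutant replicate 2 lay within the WT range. Relative to WT the log2 fold change was 0.92 (SE 0.211, adjusted p = 0.0185) in PIK3CA mutants and 0.85 (SE 0.204, adjusted p = 0.0132) in double mutants by edgeR. Both were lost without WT replicate 1 (0.081 and 0.0632) or WT replicate 3 (0.131 and 0.0903), and the first also without PIK3CA mutant replicate 3 (0.0512). In the double mutants it was lost as well without both replicates 2 and 3 (0.0524).

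Galnt15 (ENSMUSG00000021903, chr14:32028989-32062197, plus strand) fell where HER2 was mutated. WT libraries had 86.3, 56.7 and 70.9 CPM and PIK3CA mutants 21.2, 62.6, 74.3 and 39.6 CPM. HER2 mutants had 0.189, 3.01, 5.36 and 13.7 CPM, and double mutants 1.38, 3.96, 1.00, 7.48 and 1.17 CPM. All 9 libraries with mutated HER2 were below all 7 without it. Against WT, the mean was 12.8 times lower in HER2 mutants and 23.8 times lower in double mutants, with log2 fold changes of -3.68 (SE 0.907, adjusted p = 0.0187) and -4.57 (SE 0.862, adjusted p = 0.00282) by edgeR. Against PIK3CA mutants, it was lower by -3.15 (SE 0.862, adjusted p = 0.0497) in HER2 mutants and by -4.04 (SE 0.821, adjusted p = 0.0399) in double mutants. The double mutant call against WT was kept with any library left out, and that of HER2 mutants was lost without WT replicate 1 (0.0552) or WT replicate 3 (0.059). The calls against PIK3CA mutants were weaker: in HER2 mutants the call was lost in 6 of 8 fits (0.067 to 0.118) and kept without HER2 mutant replicate 1 or 4, and in double mutants it was lost in 8 of 9 fits (0.0611 to 0.138) and kept only without double mutant replicate 4 (0.0458). The summed level of the 7 basal markers was 881, 1011 and 470 CPM in WT, 498 to 1368 CPM in PIK3CA mutants, 971, 259, 265 and 381 CPM in HER2 mutants and 553 to 1018 CPM in double mutants. It was thus below WT in 3 of the 4 HER2 mutants, and its part in the fall of Galnt15 was not tested.

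Galnt14 and Galnt9 were low throughout. Galnt14, known for glycosylating death receptors, had 0.0874, 0.200 and 0.100 CPM in WT, 3.32, 2.64, 1.02 and 0.911 CPM in PIK3CA mutants, 2.45, 0.0629, 0.844, 0.720 and 0.739 CPM in double mutants, and 0, 1, 0 and 4 counts in the 4 HER2 mutants. All PIK3CA mutants and 4 of 5 double mutants were above every WT and HER2 mutant library, with double mutant replicate 2 among the HER2 mutants. Because Galnt14 entered the test through the genotypes in which it is high, its p-values are no independent support for a difference. The PIK3CA mutants were higher than WT by a log2 fold change of 3.93 (SE 0.965, edgeR adjusted p = 0.0277), which no longer passed without any 1 of the WT replicates 1, 2 or 3 (0.129, 0.0575 and 0.162) or PIK3CA mutant replicate 1 (0.0771) or 2 (0.064). HER2 mutants were lower than PIK3CA mutants (adjusted p = 0.00485) and than double mutants (adjusted p = 0.0163) by edgeR, and the fitted sizes depend on the near absence of counts in HER2 mutants. Galnt9 had 0.280, 0.820 and 0.417 CPM in WT and 0.398, 1.71, 0.775 and 0.411 CPM in PIK3CA mutants. Double mutants had 0.496, 0.0420, 0.903, 0.610 and 0.953 CPM, and HER2 mutants 2, 8, 5 and 2 counts. HER2 mutants differed from PIK3CA mutants by a log2 fold change of -3.22 (SE 0.784, edgeR adjusted p = 0.0301). The call was lost in 5 of 8 fits without 1 library (0.0513 to 0.102). It was kept without PIK3CA mutant replicate 1, PIK3CA mutant replicate 4 or HER2 mutant replicate 2. Galnt9 too entered the test through the genotypes in which it is higher, so its p-value is no independent support for a difference.

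The other tested transferases passed in no comparison. Galnt10 (20.2 to 90.6 CPM over all libraries), Galnt1 (24.7 to 83.4 CPM), Galnt11 (22.0 to 37.4 CPM) and Galnt4 (10.9 to 30.5 CPM) were well measured. Galnt4, which like Galnt7 can act on already glycosylated peptides, came nearest in HER2 mutants, with a log2 difference from WT of -0.85 (edgeR adjusted p = 0.0503). Galnt6, a transferase known from breast epithelium, had 4.11 to 16.7 CPM in WT and 0.753 to 1.65 CPM in PIK3CA mutants, ranges that did not overlap, and its log2 difference of -2.86 did not pass by edgeR (adjusted p = 0.0586). Galnt12, Galnt16 and Galnt17 stayed at or under 3.003 CPM. Galnt2 was read at 1.67 to 3.93 CPM, but 90.005% of its exon bases are shared with other annotated genes, Galnt2l among them, so its level is uncertain.

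Per kilobase of exon, Galnt3 was the most abundant transferase mRNA in all 4 genotypes. It made up 26.5 ± 2.58% of the summed CPM per kilobase of the Galnt genes in WT, 34.98 ± 1.19% in PIK3CA mutants, 40.5 ± 8.27% in HER2 mutants and 38.1 ± 6.00% in double mutants (SD). Galnt15 ranked next in WT at 14.5 ± 3.56%, hardly above Galnt10 at 14.0 ± 1.60%, and stood at 6.84 ± 3.04% in PIK3CA mutants, 1.16 ± 1.12% in HER2 mutants and 0.486 ± 0.455% in double mutants. Galnt18 had 8.95 ± 2.22% in WT, 22.0 ± 2.76% in PIK3CA mutants, 14.7 ± 2.60% in HER2 mutants and 21.3 ± 2.63% in double mutants, where it ranked next after Galnt3. Galnt7 had 6.73 ± 0.343% in WT, 10.4 ± 1.18% in PIK3CA mutants, 14.3 ± 1.97% in HER2 mutants and 9.46 ± 1.68% in double mutants.

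**Figure D5:**
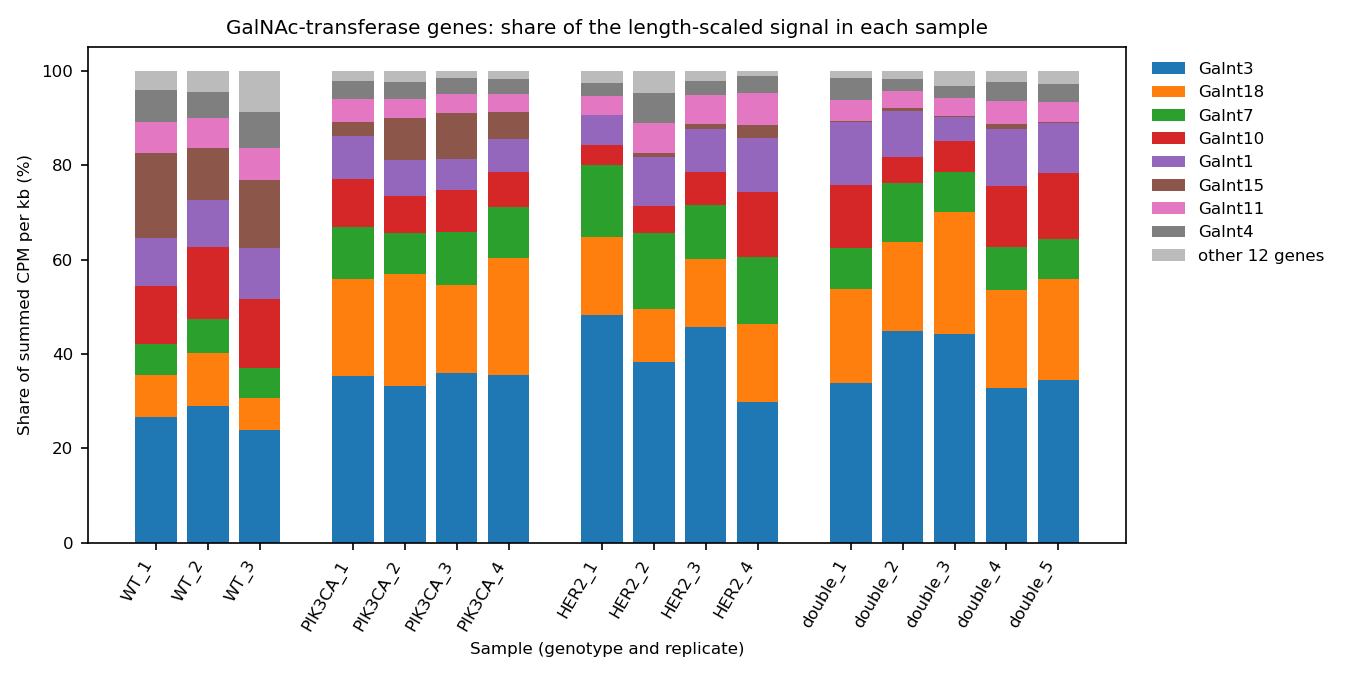
Share, in percent, of 8 Galnt genes and of the other 12 together in the summed CPM per kilobase of exon of all 20, stacked for each sample. Galnt3 is the largest layer in every genotype, with genotype means from 26.5% to 40.5%, Galnt18 averages 8.95% in WT and 22.0% in PIK3CA mutants, and Galnt15 averages 14.5% in WT and 0.486% in double mutants.

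Of the core enzymes, the core 2 branching enzyme Gcnt1 had 7.13, 6.24 and 15.1 CPM in WT, 14.4, 9.92, 9.74 and 11.8 CPM in PIK3CA mutants, 33.2, 6.88, 27.7 and 26.0 CPM in HER2 mutants, and 29.1, 35.9, 17.7, 21.1 and 26.7 CPM in double mutants. Double mutants were all above WT and PIK3CA mutants, as were 3 of the 4 HER2 mutants, with HER2 mutant replicate 2 at the WT level. Gcnt1 rose in double mutants over WT by a log2 fold change of 1.46 (SE 0.421, edgeR adjusted p = 0.034). The call was lost without WT replicate 1 or 2 (0.152 and 0.129), without double mutant replicate 1, 2 or 5 (0.0522, 0.0718 and 0.0517), and without both double mutant replicates 2 and 3 (0.0697).

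C1galt1, the core 1 synthase, had 67.2, 50.9 and 49.5 CPM in WT, 53.2 to 60.1 CPM in PIK3CA mutants, 80.7, 72.3, 62.5 and 64.2 CPM in HER2 mutants, and 51.3, 51.9, 50.1, 50.7 and 52.9 CPM in double mutants. Double mutants were all below HER2 mutants, and WT overlapped both. It was lower in double than in HER2 mutants by a log2 fold change of -0.45 (SE 0.110, edgeR adjusted p = 0.0453), lost in 7 of 9 fits without 1 library (0.0621 to 0.0921) and kept without HER2 mutant replicate 3 or replicate 4. Its chaperone C1galt1c1 ranged from 10.9 to 22.0 CPM and the core 3 enzyme B3gnt6 from 0.106 to 0.846 CPM over all libraries, and neither passed in a comparison.

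In double against HER2 mutants 3 of the 28 tested passed (Galnt14 higher, Muc6 and C1galt1 lower), where 2.5% of all genes tested were called, 1.03% higher and 1.47% lower. In double against PIK3CA mutants only Galnt15 passed, lower, where 0.672% were called and 0.363% were lower. In HER2 against PIK3CA mutants 5 passed (Muc6 higher, Galnt9, Galnt14, Galnt15 and Galnt18 lower), where 4.41% were called, 2.21% higher and 2.2% lower. Over the 6 pairwise comparisons, 28 of 168 differences passed, and in 25 of these the 2 groups' libraries did not overlap. The share without overlap among all called genes was not computed, so this count is not a trait of the members. Without double mutant replicate 1, 4 or 5, 1 member was called in double against HER2 mutants. In HER2 against PIK3CA mutants 2 were called without PIK3CA mutant replicate 2, and 3 without PIK3CA mutant replicate 3 or HER2 mutant replicate 3. For these fits too, the shares of all genes called are not given here. The 3 called differences with overlap were Muc20 in HER2 mutants against WT, and Galnt14 and Muc6 in double against HER2 mutants.

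Other genes of the pathway supply the sugars or extend the glycans, and their calls stand beside the shares of all genes called against WT, 4.52% in PIK3CA, 10.4% in HER2 and 11.8% in double mutants. Of 12 listed genes for sugar supply and transport, all tested, 3 were called in HER2 mutants and 3 in double mutants by edgeR, 5 and 6 by DESeq2, and 7 and 8 had an unadjusted p under 0.05. The shares of all genes above are those of edgeR. No such share stands here for DESeq2 or the unadjusted p, so those counts are not a trait of the list. HER2 mutants had Uap1 (log2 fold change 0.93, adjusted p = 0.00974) and Galk1 (0.95, adjusted p = 0.0142) higher and the transporter gene Slc35a3 lower (-0.76, adjusted p = 0.00925) against WT by edgeR. In PIK3CA mutants 0 of the 12 passed by edgeR and 0 by DESeq2, and 2 had an unadjusted p under 0.05. Double mutants had Uap1, which makes UDP-GlcNAc (1.03, adjusted p = 0.00284), and Gfpt1, the entry enzyme of the hexosamine pathway (0.67, adjusted p = 0.0437), higher than WT by edgeR. Of 23 listed genes for capping and extension, 19 were tested, and 1 was called in PIK3CA, 2 in HER2 and 3 in double mutants against WT. These counts are near the shares of all genes and are not a trait of the list. The galactosyltransferase gene B4galt5 fell in PIK3CA mutants (-2.55, adjusted p = 0.0212) and double mutants (-3.53, adjusted p = 0.000978) against WT, and the sialyltransferase gene St3gal4 rose in HER2 mutants (1.32, adjusted p = 0.0305) and double mutants (1.51, adjusted p = 0.0109) by edgeR. Fut2 passed as higher in HER2 mutants (edgeR adjusted p = 0.0307), whose libraries ran from 0.0614 to 21.4 CPM, and B3galt5 as higher in double mutants (2.17, edgeR adjusted p = 0.0163). The median log2 difference from WT of the tested capping genes was 0.31 in PIK3CA, 0.39 in HER2 and 0.44 in double mutants, and that of the sugar supply genes was 0.10, 0.10 and 0.37. For all genes tested it was -0.03, 0.03 and 0.01. These medians carry no test.

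Of 16 listed genes of goblet and secretory cells, 9 were tested. Against WT, 2 were higher in PIK3CA mutants, 2 higher and 1 lower in HER2 mutants, and 2 higher and 1 lower in double mutants, beside 4.52%, 10.4% and 11.8% of all genes called in either direction. Fcgbp, which encodes a protein of intestinal mucus, averaged 171 ± 69.1 CPM in WT, 3735 ± 2218 in PIK3CA mutants, 858 ± 637 in HER2 mutants and 2212 ± 1315 CPM in double mutants. Its log2 fold change over WT was 4.45 (SE 0.765, adjusted p = 0.00295), 2.32 (SE 0.686, adjusted p = 0.0418) and 3.69 (SE 0.724, adjusted p = 0.00375) in that order by edgeR. Of the other 5 goblet markers, Zg16 reached at most 0.135 CPM, Tff3 0.133 CPM and Clca1 0.868 CPM in any library. Spdef ran from 0.817 to 2.51 CPM and Muc2 from 0.484 to 16.9 CPM. Clca1 passed as higher in PIK3CA mutants at this level (edgeR adjusted p = 0.0202). It had at least 3 counts in 13 of the 16 libraries and a median of 0.194 CPM. Clca1 may thus have entered the test through the genotypes in which it is high, so its p-value is no independent support for a difference. The transcription factor gene Foxa3, known from goblet cells, fell in HER2 mutants (-2.31, edgeR adjusted p = 0.0436) and double mutants (-2.45, edgeR adjusted p = 0.021). The remaining calls of this list against WT were transcription factor genes that rose, Creb3l1 in HER2 mutants and Bhlha15 in double mutants.

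Of 12 listed mucin-type or mucin-binding proteins outside the rule, 10 were tested, and 1 was called in PIK3CA, 4 in HER2 and 2 in double mutants against WT, beside the same shares of all genes. Selplg, a sialomucin of blood cells, fell in PIK3CA, HER2 and double mutants (edgeR adjusted p = 0.00495, 0.0476 and 0.00337), and the immune markers given above were lower in the same libraries. Glycam1, a mucin-like milk protein, was at or under 0.148 CPM in WT, PIK3CA mutant and double mutant libraries and at 1.36 to 104 CPM in HER2 mutants, with an adjusted p of 0.002 against WT by edgeR. Because Glycam1 entered the test through the HER2 mutants, where it is high, this p-value is no independent support for a difference. Ovgp1 was higher (2.08, adjusted p = 0.0142) and the galectin gene Lgals3 lower (-1.69, adjusted p = 0.0338) in HER2 mutants, and Cd24a was higher in double mutants (1.07, adjusted p = 0.0115), against WT by edgeR.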

How the data were processed

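RNA sequencing of 16 organoid samples was analysed from the authors' deposited table of whole-number counts per gene, and their deposited normalized signal, which equals these counts divided by a size factor for each library, was used for 1 alternative. The submitters' processing notes name the build mm10 and, without roles or order, bcl2fastq 2.20, STAR 2.0.4b, Subread, featureCounts 1.4.5 and DESeq2 1.33.5. The annotation and the strand setting are not given in the sources used here.

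The table held 55774 entries, of which 287 repeated another entry identically and were dropped. Counts were tested with edgeR 4.0.16 in R 4.3.3 (filterByExpr, TMM, glmQLFit and glmQLFTest) in 1 fit of all 16 samples by genotype, with p-values adjusted over the 24252 genes tested. The SE is the size of the log2 fold change divided by the square root of F. Positions and exon lengths come from GENCODE M21 and upstream sequences from RefSeq, both on GRCm38, the assembly that mm10 denotes. Matching by gene ID found 38 of 38 members in GENCODE, and an upstream window from RefSeq was kept for 24 members. Entries of members on chromosome 18, where Galnt1 lies, were left out.

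The tests were tried on simulated counts first. Alternatives were other scaling, DESeq2 1.42.0, other filters, fewer genotypes in the fit, a replicate block, limma 3.58.1 on log2 of the normalized value plus 1, and leaving out libraries. Members and gene lists (sugar supply, capping and extension, goblet and secretory, mucin-type proteins, cell type markers) were chosen with earlier results of these data known. The named genes were set by a rule: 26 members by name plus each member past the threshold in any comparison. Muc1 was given with its test values after they were seen. 1 gene of the sugar supply list is counted in that list but not reported here by name.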

Additional observations from a re-analysis of the deposited data

Results flagged for a closer look

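In 81 genotype groups of 4 or 5 libraries of named members, 5 held a library far from the others of its group, a gap that chance gives in about 1 of 20 groups. The number found is near what this rate would give. Muc15 stood at 375 CPM in PIK3CA mutant replicate 1, beside 213 to 229 CPM in the other PIK3CA mutants. Muc5b stood at 8.04 CPM in PIK3CA mutant replicate 4, beside 4.65 to 5.004 CPM in the others. Gcnt1 stood at 6.88 CPM in HER2 mutant replicate 2, beside 26.0 to 33.2 CPM in the other HER2 mutants. In double mutant replicate 2, Galnt9 stood at 0.0420 CPM, beside 0.496 to 0.953 CPM in the other double mutants, and Galnt16 at 0.462 CPM, beside 0.117 to 0.166 CPM.

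For 2 members the interaction term of the edgeR fit passed the threshold. A HER2 effect that differs between backgrounds cannot be told apart here from the tissue of origin, which differs between WT and all mutants. The term was -1.42 for Galnt7 (edgeR adjusted p = 0.0151), with all 4 HER2 mutants above all WT libraries. It was -5.90 for Muc4 (edgeR adjusted p = 0.0495), a value just inside the threshold.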

How the results depend on the processing

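Over 30 called differences (28 pairwise and 2 interaction terms), 0 changed sign under any alternative run, 10 were called in every fit that left out 1 library, 13 under every other setting, and 7 under all. These 7 were Galnt7 in PIK3CA and HER2 mutants, Galnt18 in PIK3CA and double mutants, and Galnt15 and Muc20 in double mutants, all against WT, and Galnt14 in HER2 against PIK3CA mutants. As Galnt14 entered the test through the genotypes in which it is high, the steadiness of its call is no independent support. The alternatives had been planned for every named member in every comparison. Single values are given in the text only for the called differences, Muc1, and Muc15 in HER2 mutants; of the 166 tested differences that were not called, 57 changed sign in at least 1 fit, with 0 of those sign changes called, and 29 were called in at least 1 fit. The largest of the 57 was the interaction of Muc16 at 2.71.

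The number of members called ranged, over the fits without 1 library, from 2 to 7 in PIK3CA mutants against WT, 2 to 8 in HER2 mutants against WT, 4 to 8 in double mutants against WT, 1 to 4 in double against HER2, 0 to 1 in double against PIK3CA, 2 to 5 in HER2 against PIK3CA mutants, and 0 to 3 for the interaction. With only the compared genotypes in the fit it was 11 instead of 7 in PIK3CA mutants against WT, 1 instead of 4 in HER2 mutants against WT, 0 instead of 3 in double against HER2, 2 instead of 1 in double against PIK3CA, and 2 instead of 5 in HER2 against PIK3CA mutants. The 9 calls not made there were Muc4, Muc20 and Galnt15 in HER2 mutants against WT, Muc6, Galnt15 and Galnt18 in HER2 against PIK3CA mutants, and Muc6, Galnt14 and C1galt1 in double against HER2 mutants. DESeq2 called 10 in HER2 mutants against WT and 6 in double against HER2 mutants. With median-of-ratios or upper-quartile scaling the interaction had 1. Without both double mutant replicates 2 and 3, chosen after seeing the data, double against HER2 mutants had 5, of which 1 was among the original 3, and double against PIK3CA mutants had 0. The shares of all genes called under these alternatives are not given here, so these counts are not a trait of the members. The causes were not tested.

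Replicate numbers shared between genotypes were not used as pairs in the main fit. The correlation of same-numbered deviations was over 0.1 for every pair in none of the comparisons. For double and HER2 mutants, however, all were positive, the lowest 0.0711 and the mean 0.157, beside a mean of -0.0407 for differently numbered samples. This check does not settle whether those samples were paired. With the replicate block, 19 of the 30 calls were made. The 11 not made were Muc15 and Galnt14 in PIK3CA mutants and Muc20 in HER2 mutants against WT, Gcnt1 in double mutants against WT, Galnt9 in HER2 against PIK3CA mutants, Galnt15 in double against PIK3CA mutants, Muc6, Galnt14 and C1galt1 in double against HER2 mutants, and both interactions. The count was 0 in double against HER2 mutants, 0 in double against PIK3CA mutants and 0 for the interaction. The share of all genes called with the block is not given here. At the depth of these libraries, members under about 0.0659 CPM cannot be told from 0.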
